A study of Mus musculus with 75 samples.

Results

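The genes described here encode the cyclin-dependent kinase (CDK) inhibitors, the proteins that bind CDKs or their cyclin complexes and hold back the cell cycle. They are Cdkn1a, Cdkn1b and Cdkn1c of the Cip/Kip family and Cdkn2a, Cdkn2b, Cdkn2c and Cdkn2d of the Ink4 family. They were chosen by gene symbol, and each is given by its probe set with the highest mean over all arrays, so that 7 of the 21552 genes measured are covered. These 7 genes had 10 probe sets in all: 3 for Cdkn1b, 2 for Cdkn1a and 1 for each of the others. The 75 one-colour arrays, 1 per sample, were made from mouse medulloblastoma that had arisen in Ptch1+/- mice and was grown as allografts in CD1 nude hosts. Ptch1 encodes the receptor that restrains sonic hedgehog (SHH) signalling. Tumours were collected after MK4101, an inhibitor of that pathway, or after vehicle. For a single dose (QD) the arrays of vehicle, 40 mpk and 80 mpk (the labels' unit of dose) numbered 5, 4 and 5 at 1 h, 5, 5 and 3 at 6 h, 4, 3 and 4 at 12 h, 5, 4 and 4 at 24 h, and 3, 3 and 4 at 36 h. For multiple doses (BID) there were 1 array of 80 mpk and 4 of vehicle at 24 h, and 4 arrays of 80 mpk and 5 of vehicle at 36 h. Every tumour, vehicle included, came from the Ptch1+/- background and grew in a host that keeps its own stroma, vessels and macrophages. The labels state neither the number of source tumours nor that samples within a group are from different mice, so p-values measure the spread between these samples, which may be technical.

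Ink4 proteins bind CDK4 and CDK6 and keep them from pairing with D-type cyclins, while Cip/Kip proteins bind complexes of cyclins with CDK2 and also with CDK4 and CDK6. In granule neuron progenitors of the cerebellum, the cells from which SHH medulloblastoma arises, SHH signalling drives proliferation through D-type cyclins and Mycn. Withdrawal of the signal is followed by exit from the cell cycle. Cdkn1b and Cdkn2c are known in mice as genes whose loss favours medulloblastoma, and the abundance of the Cdkn1b protein, p27, is set largely by its degradation, which transcript arrays do not measure.

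All values are intensities scaled so that every array has a mean of 1, and fold changes are on the log2 scale, MK4101 minus vehicle of the same schedule and time. Levels of the members are compared within a probe set only, since probes differ in brightness. Gli1, a direct SHH target, showed the pathway's state: its log2 change at 80 mpk was -4.00 at 6 h, -4.48 at 12 h, -3.19 at 24 h and 0.05 at 36 h after a single dose, and -2.90 at 36 h of multiple dosing. Of the markers of granule neuron progenitors, Zic1, Atoh1, Neurod1 and Meis1 stood at the 99.6th, 99.3rd, 98.6th and 97.6th percentile of brightness among all genes, while Zic2 and Lhx9 stood at the 43.9th and 24.8th. Brightness depends on the probe as well as on the transcript, so these percentiles describe signal and do not rank the genes' expression. Skeletal muscle genes were uneven: in 21 of the 75 arrays the mean of 14 muscle genes was above 0 on the log2 scale, within a range from -3.62 to 4.2. Results that lost their call without those arrays are named where they are given. At 24 h of 40 mpk 3 of the 4 arrays were muscle-rich, against 1 of 5 in vehicle, so leaving them out gave no value. The Cdkn2c and Cdkn2d calls at 40 mpk 24 h, and effect differences that use that group, therefore lack this check.

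The promoter sequences of the genes that moved most often are shown first: Cdkn2d and Cdkn2c, which fell together, and Cdkn1b, which was higher. Each window runs from 250 bases before to 50 bases after a RefSeq start site of build GRCm38.p6 and is written 5′ to 3′ on the strand of the gene. Capitals mark matches, on either strand, to the GC box GGGCGG and the CCAAT box CCAAT. 6 of the 7 genes matched an entry in the RefSeq table used, and Cdkn1c did not.
Cdkn2d, chr9:21291160-21291459, minus strand: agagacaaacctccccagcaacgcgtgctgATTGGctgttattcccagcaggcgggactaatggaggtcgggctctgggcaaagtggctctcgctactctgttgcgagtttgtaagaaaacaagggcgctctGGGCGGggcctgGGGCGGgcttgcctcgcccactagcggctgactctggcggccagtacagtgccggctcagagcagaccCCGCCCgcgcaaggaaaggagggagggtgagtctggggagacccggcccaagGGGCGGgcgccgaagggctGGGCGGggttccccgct
Cdkn2c, chr4:109666707-109667006, minus strand: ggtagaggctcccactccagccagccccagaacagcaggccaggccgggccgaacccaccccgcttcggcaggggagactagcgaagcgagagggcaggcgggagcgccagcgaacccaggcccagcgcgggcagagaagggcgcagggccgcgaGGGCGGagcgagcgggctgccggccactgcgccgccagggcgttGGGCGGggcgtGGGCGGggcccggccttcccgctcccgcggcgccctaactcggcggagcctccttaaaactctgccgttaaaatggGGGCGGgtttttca
Cdkn1b, chr6:134920151-134920450, plus strand: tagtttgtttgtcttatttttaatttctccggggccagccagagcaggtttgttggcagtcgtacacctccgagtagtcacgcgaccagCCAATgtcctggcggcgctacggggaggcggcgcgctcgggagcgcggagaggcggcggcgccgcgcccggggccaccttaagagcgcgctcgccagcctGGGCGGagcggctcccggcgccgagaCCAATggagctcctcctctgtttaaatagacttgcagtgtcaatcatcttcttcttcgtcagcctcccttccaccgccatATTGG

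The Cdkn2d window held 5 GC boxes and 1 CCAAT box, the Cdkn2c window printed 4 GC boxes and no CCAAT box, and the Cdkn1b window 1 GC box and 3 CCAAT boxes. Of all 32851 windows of this length, 35.7% held at least 1 GC box and 37.4% at least 1 CCAAT box. The Cdkn2d, Cdkn2c and Cdkn1b windows were 66.3%, 73.3% and 62% G or C, above the median of 52.7% over all windows. The E2F forms TTTCCCGC (in 1.07% of all windows) and TTTGGCGC (0.514%), the E-box CACGTG (7.15%) and the FOXO form GTAAACA (3.65%), searched on both strands, had no match in these 3 windows. Cdkn2c has another start site in the table, whose window (chr4:109665323-109665622, not printed) held 1 CCAAT box, 1 E-box and no GC box. By position, no match overlapped another in the 3 windows printed. A match here is a run of letters, not a measured site.

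Across the 11 comparisons of MK4101 with vehicle, 13 of 77 values passed limma's moderated test at an adjusted p under 0.05, and 5 of the 7 genes passed at least once. Cdkn2c and Cdkn2d were lower at 24 h of both doses and at 36 h of multiple dosing, Cdkn2d also at 36 h of a single 80 mpk dose. Cdkn1b was higher at 12 h of both doses and at 36 h of multiple dosing, Cdkn2b was higher at 36 h of multiple dosing, and Cdkn1c was higher at 12 h and lower at 36 h of 80 mpk. Cdkn1a and Cdkn2a passed in no comparison. At 1 h no member passed at 40 mpk or 80 mpk, where 0% of all genes were called in either direction; at an unadjusted p under 0.05 there was 1 member at each dose. At 6 h no member passed either; 0.626% of all genes were called higher and 1.05% lower at 40 mpk, and 0.575% and 1.18% at 80 mpk, while 3 and 2 members had an unadjusted p under 0.05. At 12 h 1 member was higher at 40 mpk (3.9% of all genes higher, 2.59% lower) and 2 were higher at 80 mpk (3.85% higher, 5.99% lower). At 24 h 2 members were lower and none higher at 40 mpk (14.5% of all genes higher, 12.1% lower), and likewise 2 and none at 80 mpk (17.6% and 15.3%). At 36 h none passed at 40 mpk (0.288% and 0.39%; 0 members had an unadjusted p under 0.05), and 2 were lower at 80 mpk (5.22% and 5.64%). After multiple doses 2 were higher and 2 lower at 36 h, beside 19.8% of all genes higher and 17.7% lower.

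**Figure D1:**
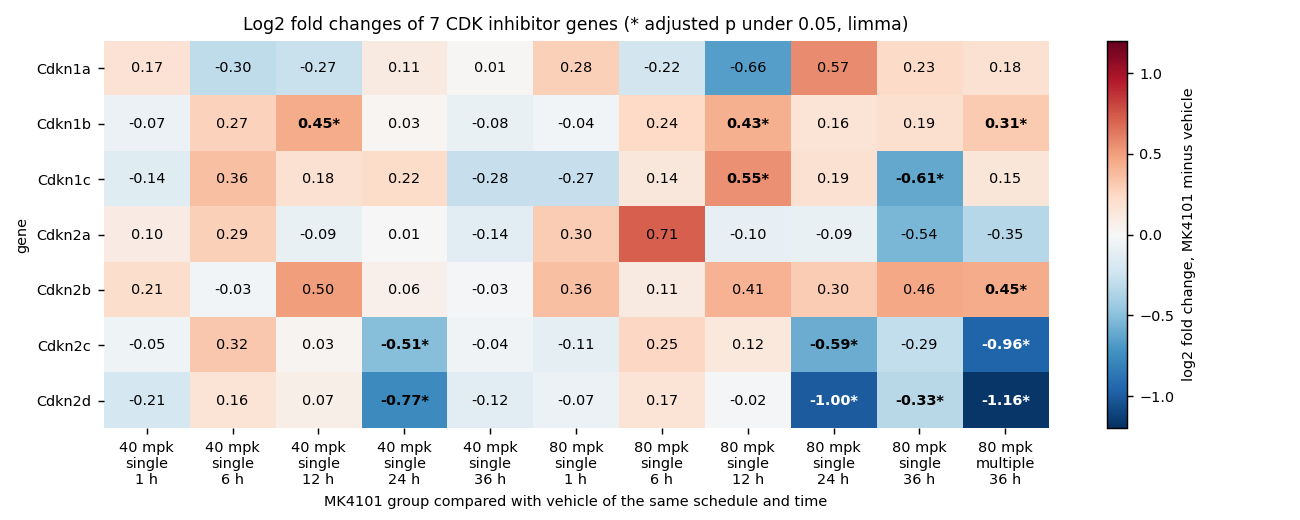
Log2 fold changes of the 7 CDK inhibitor genes (rows) in the 11 comparisons of MK4101 with vehicle (columns), in colour and figures, with an asterisk at an adjusted p under 0.05. Cdkn2c and Cdkn2d carry the lowest values, at 24 h and in the multiple-dose comparison, where Cdkn2d reached -1.16.

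Cdkn2d encodes p19Ink4d, an Ink4 inhibitor made in developing neurons as well as in cycling cells. At 24 h after 80 mpk it had intensities of 1.96, 2.23, 2.29 and 1.92, against 3.94, 4.29, 4.08, 4.25 and 4.31 in vehicle tumours. The groups lay far apart, with every treated array below every vehicle array. The log2 change was -0.996 ± 0.095 (SE), a 1.99-fold lower level (limma, adjusted p = 2.73e-13). At 40 mpk the 4 arrays had 2.89, 2.28, 2.10 and 2.61, a log2 change of -0.77 ± 0.10 (limma, adjusted p = 2.81e-09). These arrays too were all below vehicle, although 2 of them were nearer to it than any array of 80 mpk.

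After multiple doses of 80 mpk, Cdkn2d at 36 h had 1.30, 1.95, 1.67 and 2.01, against 3.67, 3.82, 3.91, 4.15 and 3.63 in vehicle, the largest change of any member in any comparison with vehicle: -1.16 ± 0.10 on the log2 scale (limma, adjusted p = 5.06e-16). A single dose of 80 mpk left 2.66, 3.93, 3.86 and 3.17 at 36 h, against 4.22, 4.29 and 4.15 in vehicle tumours. These groups did not overlap, but 2 of the treated arrays were close to the vehicle arrays. The change was -0.33 ± 0.11 (limma, adjusted p = 0.0378) and lost its call under 9 of 17 alternatives, among them leaving out the muscle-rich arrays (-0.22, adjusted p = 0.179), any of the 3 vehicle arrays (adjusted p from 0.0921 to 0.107), treated array 1 (-0.22, adjusted p = 0.271) or treated array 4 (adjusted p = 0.0986). Before 24 h Cdkn2d had log2 changes between -0.21 and 0.17, and none passed. At 36 h of 40 mpk the 3 arrays had 3.76, 3.76 and 4.12, just below all vehicle arrays, with a log2 change of -0.12 (adjusted p = 0.697).

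Cdkn2c encodes p18Ink4c, which restrains CDK4 and CDK6 in progenitors and is itself periodically expressed in cycling cells. At 24 h of 80 mpk its arrays had 1.93, 1.51, 1.32 and 1.45, against 2.07, 2.12, 2.53, 2.60 and 2.31 in vehicle. The treated values were all lower, the first of them only slightly. The change was -0.59 ± 0.13 on the log2 scale (limma, adjusted p = 0.000127). At 40 mpk the values were 2.15, 1.53, 1.38 and 1.55, of which the first lay within the vehicle range, and the change was -0.51 ± 0.13 (limma, adjusted p = 0.00137). After multiple doses Cdkn2c at 36 h had 0.907, 1.11, 0.901 and 1.45, against 1.86, 2.34, 2.10, 2.12 and 2.0 in vehicle tumours. No arrays overlapped, and the change of -0.96 ± 0.13, a 1.94-fold lower level, was the second largest among the members in that comparison (limma, adjusted p = 3.67e-09). After a single dose of 80 mpk the values at 36 h were 1.56, 2.47, 1.95 and 1.90, overlapping the vehicle values of 2.47, 2.25 and 2.43 (-0.29, adjusted p = 0.204). At 6 h all treated arrays were above vehicle: 2.51, 2.37 and 2.55 at 80 mpk and 2.41 to 2.86 at 40 mpk, against 1.77 to 2.28. Neither change passed (0.25, adjusted p = 0.527, and 0.32, adjusted p = 0.238).

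**Figure D2:**
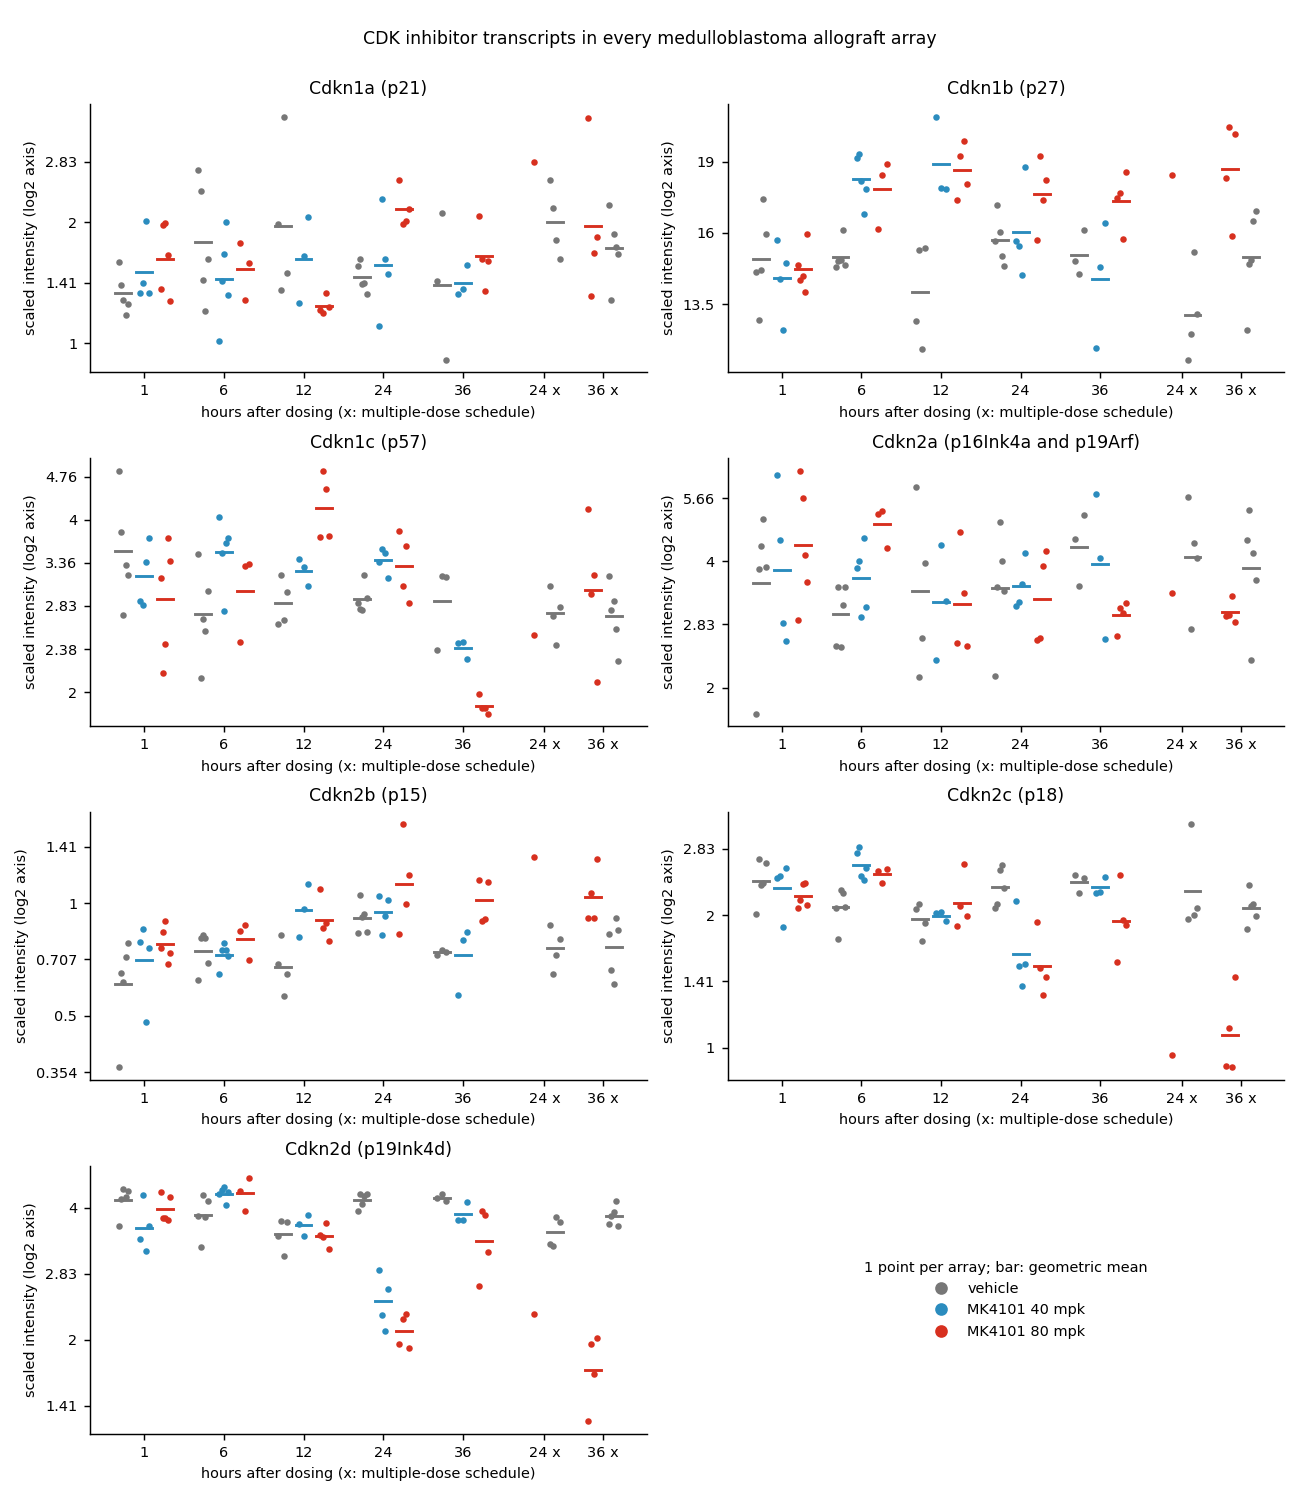
Scaled intensity of each CDK inhibitor gene on a log2 axis, 1 point per array, by hours after dosing; bars are geometric means of groups of at least 2 arrays, and x marks the multiple-dose schedule. Cdkn2c and Cdkn2d drop below vehicle at 24 h and with multiple doses, where Cdkn2d reached 1.30, while the arrays of Cdkn1a and Cdkn2a spread widely in vehicle too.

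Cdkn2b encodes p15Ink4b, known as a target of TGF-beta signalling. Its 4 arrays of multiple dosing at 36 h had 0.914, 1.07, 0.913 and 1.31, against 0.829, 0.662, 0.607, 0.910 and 0.849 in vehicle. The groups did not overlap, but by a gap of a few thousandths. The change of 0.45 ± 0.16 passed (limma, adjusted p = 0.0220), and lost its call without vehicle array 2 (adjusted p = 0.0631), vehicle array 3 (0.0840) or treated array 4 (0.131). The same call was lost without the muscle-rich arrays (adjusted p = 0.0563) and after a second quantile normalization (0.0994). Changes of like size at 40 mpk 12 h (0.50, adjusted p = 0.0939), 80 mpk 12 h (0.41, adjusted p = 0.124) and 80 mpk 36 h (0.46, adjusted p = 0.0980) did not pass. The single-dose 36 h change passed with array weights (0.43, limma, adjusted p = 0.0415) and with muscle and fibroblast covariates (0.63, 0.00496). At 80 mpk 24 h Cdkn2b did not pass (limma, adjusted p = 0.156). There it passed with array weights (0.41, 0.0101), muscle and fibroblast covariates (0.59, 0.00155) or without treated array 1 (0.45, 0.0391), among others.

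Cdkn2a encodes p16Ink4a and, from another reading frame, p19Arf, an activator of p53. Its probe set has the target NM_009877, and the files do not say whether it tells the transcripts of the 2 products apart. It had the widest spread between arrays of 1 group of any member: the median over groups of the standard deviation was 0.43 on the log2 scale, against 0.11 for Cdkn2d. At 6 h of 80 mpk its arrays had 5.19, 5.26 and 4.31, all above the vehicle values of 2.52, 3.47, 2.50, 3.15 and 3.47. This change of 0.71 ± 0.30 did not pass (limma, adjusted p = 0.330). At 36 h of 80 mpk it had 2.66, 3.09, 3.01 and 3.17, against 4.52, 3.50 and 5.17 in vehicle tumours (-0.54 ± 0.31, adjusted p = 0.301). At the other 9 comparisons its groups overlapped.

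Cdkn1b encodes p27Kip1, which holds CDK2 complexes inactive as neural progenitors leave the cycle. At 12 h of 80 mpk it had 17.3, 19.3, 20.0 and 18.02, against 12.9, 15.3, 12.1 and 15.4 in vehicle tumours. Every treated array was above every vehicle array, and the change was 0.43 ± 0.09 on the log2 scale, a 1.35-fold higher level (limma, adjusted p = 0.000900). At 40 mpk the values were 21.2, 17.9 and 17.8, again all above vehicle, with a change of 0.45 ± 0.10 (limma, adjusted p = 0.00218). Without the first of those 3 arrays the change was 0.36 (adjusted p = 0.0603), and fitted with only the groups compared it did not pass (adjusted p = 0.10). At 80 mpk the call was lost without the muscle-rich arrays (0.39, adjusted p = 0.0715).

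Multiple doses gave Cdkn1b values of 18.3, 20.7, 15.9 and 20.4 at 36 h, against 12.6, 14.8, 14.98, 16.5 and 16.9 in vehicle. Only the third treated array fell within the vehicle range, and the change was 0.31 ± 0.09 (limma, adjusted p = 0.00371, or 0.0603 with only the groups compared). At 6 h all treated arrays were above vehicle at both doses, but the changes did not pass (0.27, limma, adjusted p = 0.0940, at 40 mpk and 0.24, 0.321, at 80 mpk). Treated geometric means were 18.2 and 17.8 at 6 h and 18.9 and 18.6 at 12 h. Vehicle was at 15.1 at 6 h and 13.9 at 12 h, its lowest single-dose time. The 12 h and 6 h effects of Cdkn1b were not told apart at either dose. At 24 h of 80 mpk the values of 15.7, 19.3, 17.3 and 18.2 overlapped the vehicle range of 14.8 to 17.1 (0.16, adjusted p = 0.177). This change passed with array weights (0.21, limma, adjusted p = 0.0252) and with muscle and fibroblast covariates (0.31, 0.00309).

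The other probe sets of Cdkn1b did not pass where the reported one did. For AK158411 the log2 change was 0.24 (adjusted p = 0.595) at 80 mpk 12 h, 0.07 (0.948) at 40 mpk 12 h and 0.40 (0.112) after multiple doses; for NM_009875 the same changes were 0.52 (0.121), 0.61 (0.10) and 0.20 (0.496). AK158411 passed instead at 24 h of 80 mpk, with 0.64 ± 0.20 (limma, adjusted p = 0.00892). The signs matched those of the reported probe set in 7 and 9 of 11 comparisons. With the mean of the 3 probe sets, the change at 40 mpk 12 h was 0.38 (adjusted p = 0.0762). At 80 mpk 24 h that mean gave 0.38 and passed (limma, adjusted p = 0.00619). In the 11 comparisons with vehicle the standard errors were at least 0.187 for AK158411 and at least 0.188 for NM_009875.

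**Figure D3:**
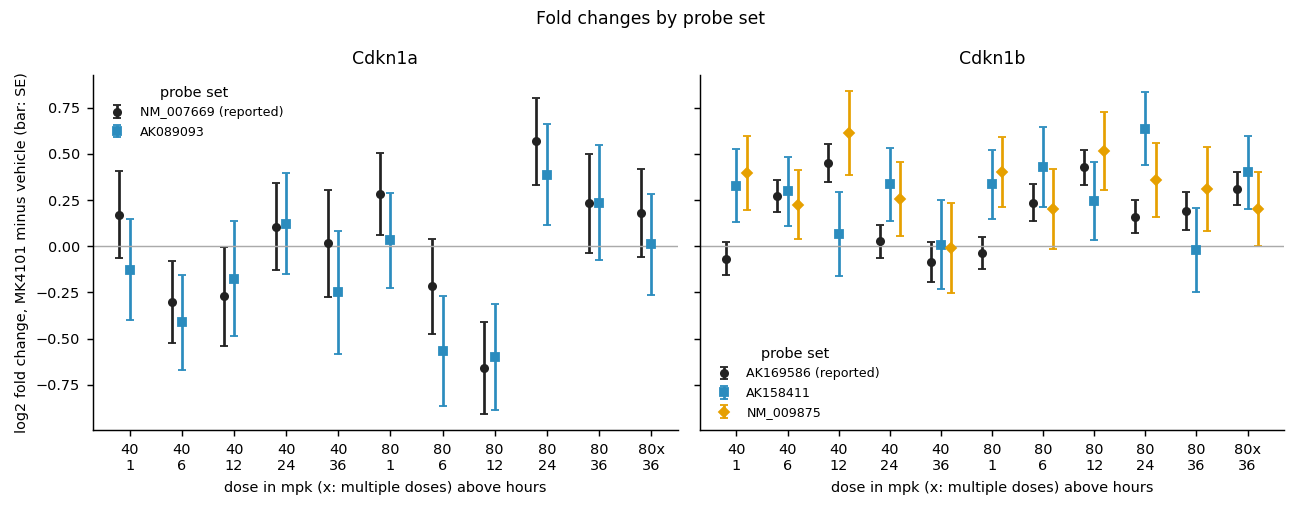
Log2 fold change with its standard error for each probe set of Cdkn1a and Cdkn1b in the 11 comparisons with vehicle; the horizontal axis gives dose in mpk above hours, and x marks multiple doses. The reported Cdkn1b probe set has the smallest errors and its highest changes at 12 h (0.45 and 0.43), where single-dose vehicle was lowest. AK158411 is highest at 80 mpk 24 h (0.64).

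Cdkn1c, an imprinted gene expressed from the maternal allele, encodes p57Kip2. At 12 h of 80 mpk it had 3.73, 4.87, 4.53 and 3.75, against 2.63, 3.20, 2.67 and 2.99 in vehicle, with no overlap and a change of 0.55 ± 0.15 (limma, adjusted p = 0.0112). At 36 h of 80 mpk the direction was the opposite: 1.99, 1.88, 1.87 and 1.84, against 2.37, 3.20 and 3.17 in vehicle tumours. These treated arrays lay close together and below all vehicle arrays, and the change was -0.61 ± 0.17 (limma, adjusted p = 0.00908). The call at 12 h was lost without treated array 2 (adjusted p = 0.0609) and without the muscle-rich arrays (0.140), and that at 36 h without vehicle array 2 (0.0524) or 3 (0.0752). After multiple doses, values at 36 h of 4.18, 2.97, 3.20 and 2.08 spread on both sides of the vehicle range of 2.26 to 3.18 (0.15, adjusted p = 0.488). At 40 mpk no change passed (-0.28 to 0.36).

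Cdkn1a encodes p21, the Cip/Kip inhibitor induced by p53 and by many stresses. Its 4 arrays at 12 h of 80 mpk had 1.21, 1.19, 1.33 and 1.23, against 1.98, 1.36, 3.66 and 1.495 in vehicle tumours. The treated values were all lower, but the vehicle arrays differed among themselves more than 2-fold, and the change of -0.66 ± 0.25 did not pass (limma, adjusted p = 0.0845). At 24 h of 80 mpk it had 2.55, 1.99, 2.01 and 2.15, all above the vehicle values of 1.56, 1.62, 1.40, 1.41 and 1.32 (0.57 ± 0.24, adjusted p = 0.0565). The 24 h change passed when fitted with only the groups compared (limma, adjusted p = 0.000894), without dim genes (0.0408) and with array weights (0.0166). It did not pass with muscle and fibroblast covariates or with 4 host marker lists as covariates. The 12 h change passed in both of these fits (-0.62 in each, limma, adjusted p = 0.0306 and 0.0115). The other probe set, AK089093, gave -0.60 (adjusted p = 0.221) and 0.39 (adjusted p = 0.308) in the same comparisons. The 12 h change of Cdkn1a moved with single vehicle arrays left out: it was -0.36 (adjusted p = 0.528) without vehicle array 3, the one at 3.66, and -0.84 (adjusted p = 0.0306) without vehicle array 2.

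Several changes depended on time. The difference between the 24 h and 12 h effects of 80 mpk was -0.98 ± 0.14 on the log2 scale for Cdkn2d (limma, adjusted p = 3.52e-07), -0.71 ± 0.18 for Cdkn2c (0.00419) and 1.23 ± 0.34 for Cdkn1a (0.00866), 3 of the 7 members, beside 17.4% of all genes called in either direction. The Cdkn1a difference was lost without vehicle array 3 of 12 h, the array at 3.66 (0.93, limma, adjusted p = 0.0628). It was lost too without the muscle-rich arrays (adjusted p = 0.0762). With muscle and fibroblast covariates it was 0.71 (limma, adjusted p = 0.114), and with 4 host marker lists 0.41 (0.478), both uncalled. The Cdkn2c difference was lost without the muscle-rich arrays (adjusted p = 0.0747). At 40 mpk Cdkn2d alone passed (-0.84 ± 0.14, limma, adjusted p = 9.88e-05; 4.11% of all genes). Between 36 h and 24 h the Cdkn2d effect differed by 0.67 ± 0.14 at 80 mpk (limma, adjusted p = 0.00103) and 0.64 ± 0.15 at 40 mpk (0.00289), toward vehicle in both. The Cdkn1c effect at 80 mpk differed by -0.80 ± 0.22 (limma, adjusted p = 0.0153), a call lost without vehicle array 2 or 3 of 36 h (adjusted p = 0.0709 and 0.0616). In these comparisons 5.74% of all genes were called at 80 mpk and 6.11% at 40 mpk. No member passed between 6 h and 1 h (0.798% of all genes at 80 mpk, 0.701% at 40 mpk; 2 and 4 members at an unadjusted p under 0.05) or between 12 h and 6 h (0.176% and 0%; 0 and 1 members).

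**Figure D4:**
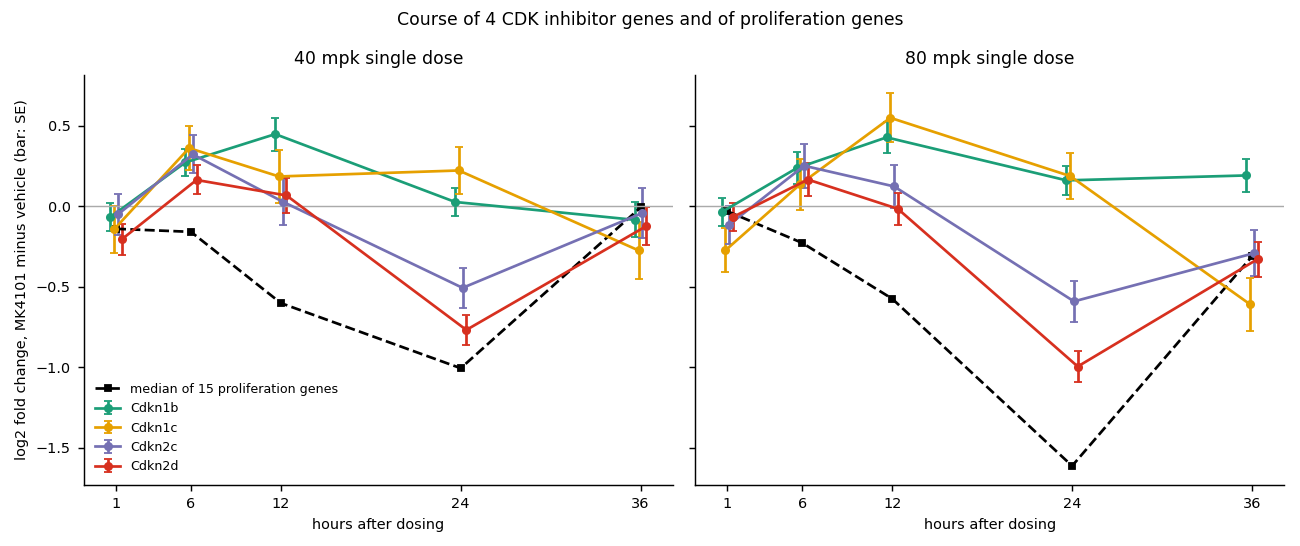
Log2 fold change with standard error for 4 CDK inhibitor genes against hours after a single dose of 40 mpk (left) and 80 mpk (right), with the median of 15 proliferation genes as a dashed line. The proliferation median was already at -0.60 and -0.58 at 12 h, when Cdkn2d was at 0.07 and -0.02; at 24 h both were lower, with Cdkn2d at -0.77 and -0.996.

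The schedules of 80 mpk differed at 36 h, each set against its own vehicle. Gli1 was then at -2.90 after multiple doses and 0.05 after a single dose. The sample titles do not give the time since the last dose, so number of doses and that time cannot be told apart. Multiple dosing minus single dosing was -0.83 ± 0.14 for Cdkn2d (limma, adjusted p = 2e-05), -0.67 ± 0.19 for Cdkn2c (0.0179) and 0.76 ± 0.22 for Cdkn1c (0.0196), while 7.26% of all genes passed in either direction. For Cdkn2d the call was kept in all 26 alternatives (adjusted p up to 0.0248); for Cdkn2c it was lost in 5 of 26, including without vehicle array 2 or treated array 2 of single dosing and treated array 1 or 3 of multiple dosing (adjusted p from 0.0572 to 0.0887). For Cdkn1c it was lost in 8 of 26, including without vehicle array 2 or 3 of single dosing (0.0796 and 0.0677) or treated array 1 of multiple dosing (0.0969), and without the muscle-rich arrays (0.0928). The single array of 80 mpk at 24 h of multiple dosing had 2.30 for Cdkn2d against 3.28 to 3.81 in 4 vehicle arrays, and 0.964 for Cdkn2c against 1.96 to 3.22. It stood above vehicle for Cdkn1b, with 18.4 against 11.8 to 15.3, and for Cdkn2b, with 1.33 against 0.647 to 0.872. Cdkn1a had 2.83 against 1.62 to 2.55, and Cdkn1c and Cdkn2a, with 2.51 and 3.36, lay within their vehicle ranges. With 1 array these differences have no replicate check.

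Doses were not told apart for any member. The 80 mpk minus 40 mpk difference for Cdkn2d at 24 h was -0.23 (95% confidence interval -0.43 to -0.03; limma, adjusted p = 0.522), and that for Cdkn2c -0.08 (-0.35 to 0.18; adjusted p = 0.978). At 12 h the difference for Cdkn1b was -0.02 (-0.22 to 0.18; adjusted p = 0.976), and for Cdkn1c 0.36 (0.03 to 0.70; adjusted p = 0.398), where the 4 arrays of 80 mpk were all above the 3 of 40 mpk. Among all genes 0%, 0%, 0.0603%, 1.21% and 0.826% passed in either direction at 1, 6, 12, 24 and 36 h. At an unadjusted p under 0.05 there were 0, 0, 1, 1 and 3 members.

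In vehicle tumours alone no member passed. Over the 5 single-dose times the moderated F test gave its lowest adjusted p for Cdkn2b (0.0692), beside 6.28% of all genes called. Multiple against single vehicle dosing gave log2 differences from -0.27 to 0.46 at 24 h (5.51% of all genes called; 2 members at an unadjusted p under 0.05, the lowest adjusted p 0.0637, for Cdkn1b) and from -0.20 to 0.31 at 36 h (0.0278% called; 0 members). Ordered by geometric mean over the 18 groups of at least 2 arrays, neighbours differed by less than the larger of their standard deviations in all 17 steps for Cdkn1a, Cdkn1b, Cdkn2a and Cdkn2b. Cdkn2d had 3 such steps beyond the spread: single-dose 80 mpk 36 h (3.36) above 40 mpk 24 h (2.45), that above 80 mpk 24 h (2.09), and that above multiple-dose 80 mpk 36 h (1.71). Cdkn2c had 1, between 80 mpk 24 h (1.54) and multiple-dose 80 mpk 36 h (1.07). For Cdkn1c there were 2, multiple-dose vehicle 36 h (2.72) above 40 mpk 36 h (2.39) and that above 80 mpk 36 h (1.89).

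Partners of the inhibitors fell over the same period. Of 13 cyclins, CDKs and retinoblastoma family genes, 2 were higher and 9 lower at 24 h of 80 mpk, with a median log2 change of -0.94 beside -0.02 over all genes. Cdk1, Ccna2, Rbl1 and Ccne2 were the most clearly lower there, at -1.71, -1.59, -1.03 and -1.85. After multiple doses 3 were higher and 10 lower (median -1.31, beside 0.01 over all genes), with Cdk1, the mitotic kinase, at -2.33. At 12 h of 80 mpk 6 were lower, among them Ccnd1 (-1.01), a D-type cyclin, and Cdk6 (-1.15), a kinase that Ink4 proteins bind. All 15 measured proliferation genes were lower at 24 h of 80 mpk (median -1.61) and after multiple doses (median -1.76). At 12 h of 80 mpk 10 were lower (median -0.58). Of all genes 15.3% were called lower at 24 h of 80 mpk, 17.7% after multiple doses and 5.99% at 12 h. The shares called higher were 17.6%, 19.8% and 3.85%.

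Of 9 genes that mark p27 for degradation or otherwise act on its turnover, 5 were lower and none higher at 24 h of 80 mpk (median -0.37, beside -0.02 over all genes). Skp2, the F-box protein that recognises phosphorylated p27, was at 0.676 against 1.71 in vehicle (-1.34 ± 0.09; limma, adjusted p = 1.23e-18), and its cofactor Cks1b at -1.06. At 12 h of 80 mpk, when Cdkn1b was higher, Skp2 was at -0.71 and Uhmk1, a kinase of p27, at -0.17. These were the 2 genes of this list that passed, and 5.99% of all genes were called lower there. Among 19 transcriptional regulators of the CDK inhibitors, 4 were higher and 5 lower at 24 h of 80 mpk. Their median was -0.06, beside -0.02 over all genes, of which 17.6% were called higher and 15.3% lower. Foxo3, an activator of Cdkn1b, was at 0.74, and Ezh2, a Polycomb methyltransferase known to silence Cdkn2a, was at -0.91. Neither Cdkn1b nor Cdkn2a passed in that comparison. Id1, known to restrain differentiation, was at -0.82, and Smad2, a TGF-beta mediator, at -0.57.

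Of 14 measured p53 targets other than Cdkn1a, 7 were higher and 2 lower at 24 h of 80 mpk (median 0.47), with Trp53inp1 at 1.80, Sesn1 at 0.90, Sesn2 at 0.81 and Bbc3 at 0.65. At 12 h, when Cdkn1a was at -0.66, 3 were higher and 2 lower (median -0.04). Of all genes at 80 mpk, 3.85% were called higher and 5.99% lower at 12 h (median -0.005). At 24 h these shares were 17.6% and 15.3% (median -0.02). Of 9 glucocorticoid response genes, 4 were lower at 12 h of 80 mpk, Fkbp5 (-0.72), Dusp1 (-1.18), Errfi1 (-0.60) and Nfkbia (-1.38), and 3 were higher and 1 lower at 24 h. At 12 h the mean log2 level of this list was -0.60 to -0.40 in 80 mpk tumours, against -0.44 to 0.81 in vehicle, while the other single-dose vehicle groups averaged between -0.62 and -0.44. The part of the 12 h vehicle arrays in these lower values was not tested. Of 8 neuronal differentiation genes, 3 were higher at 12 h of 80 mpk, 7 at 24 h and 7 after multiple doses. Stmn2 was at 0.82, 1.10 and 1.65. The shares of all genes called higher in these comparisons were 3.85%, 17.6% and 19.8%.

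Markers of host cells moved in the same comparisons as Cdkn2c and Cdkn2d. At 24 h of 80 mpk 9 of 10 fibroblast and matrix genes, 9 of 10 macrophage genes and 7 of 10 endothelial genes were higher. There 17.6% of all genes were called higher. After multiple doses the counts were 9, 9 and 6, with 1 endothelial gene lower, beside 19.8% of all genes higher and 17.7% lower. The mean log2 level of the fibroblast list ranged from 2.67 to 3.69 in 80 mpk tumours at 24 h, against 1.51 to 2.89 in vehicle, and that of the macrophage list from 2.82 to 3.70, against 1.53 to 2.55. At 12 h of 80 mpk, when Cdkn1b and Cdkn1c were higher, no fibroblast or macrophage gene and 1 endothelial gene (Kdr, -0.74) passed. In that comparison 3.85% of all genes were called higher and 5.99% lower. At 36 h of 80 mpk, when Cdkn1c was lower, 9 of 10 macrophage genes and no fibroblast gene were higher, beside 5.22% of all genes. In bulk tumours, fewer cells of a type and less RNA per cell cannot be told apart. A fit chosen after the data were seen took the means of the muscle, fibroblast, endothelial and macrophage lists as covariates. In it Cdkn2d stayed called at 24 h and after multiple doses, as did Cdkn2c at 80 mpk 24 h and after multiple doses. The Cdkn2c change at 40 mpk 24 h was -0.29 (limma, adjusted p = 0.119) and the Cdkn2d change at 80 mpk 36 h -0.26 (0.196), both uncalled. Since these lists moved with treatment, this fit cannot separate host cell content from treatment. The part of host cells in the members' changes was not tested.

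By Pearson correlation over the 19 group means, the genes most like Cdkn2d were Hmgn1 (0.99), Wbp11 (0.98) and Depdc1b (0.98), and those most like Cdkn2c were Kif18a, Cip2a and Ect2 (0.97 each). Kif18a is a mitotic kinesin and Ect2 an activator of cytokinesis. Cdkn2c and Cdkn2d were alike at 0.91. Cdkn1b followed Lmo7 (0.92), Zcchc18 (0.90) and Kcnd3 (0.90), and Cdkn2b followed Pcdhb19 (0.93), Tmem273 (0.92) and Car10 (0.91). Cdkn1c was most like Ptgr1 (0.86), the imprinted growth factor gene Igf2 (0.86) and Cdk5rap1 (0.85). These values describe 19 points that share arrays, scaling and the same treatments.

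**Figure D5:**
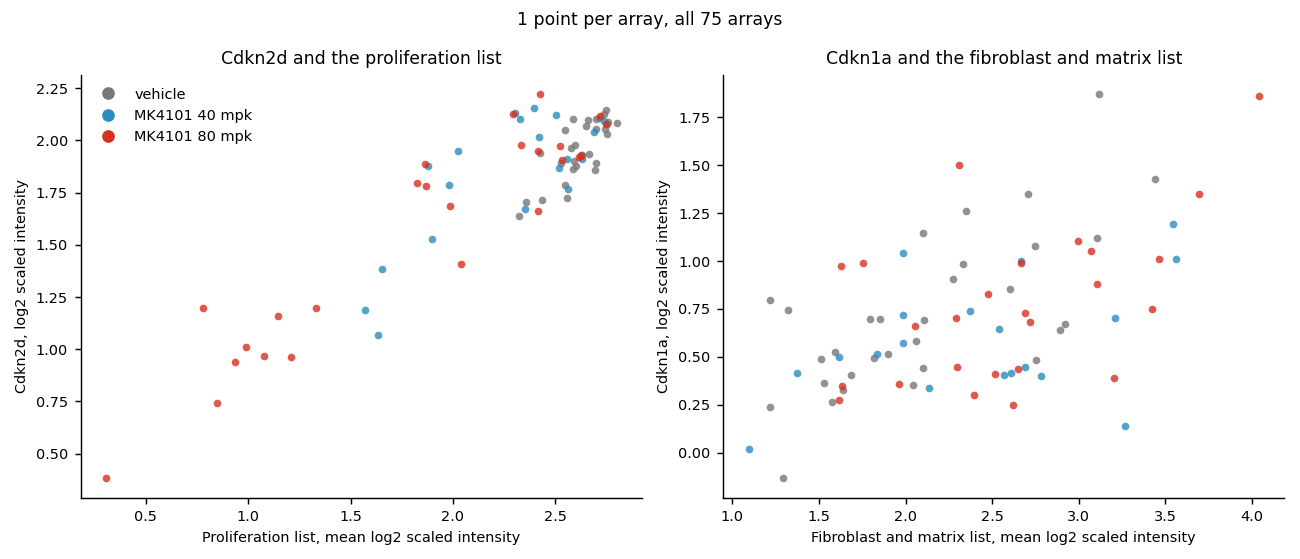
Log2 intensity of Cdkn2d against the mean of 15 proliferation genes (left) and of Cdkn1a against the mean of 10 fibroblast and matrix genes (right), 1 point per array for all 75 arrays, coloured by dose. The 8 arrays of 80 mpk at 24 h (single dose) and 36 h (multiple doses) have proliferation means from 0.31 to 1.33. Their Cdkn2d intensities run from 1.30 to 2.29. On the right vehicle and treated arrays overlap, but fibroblast means reach 4.04 in treated arrays and 3.44 in vehicle.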

How the data were processed

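Labelled cRNA of 75 samples was hybridised to one-colour arrays. The deposited table holds 1 intensity for each probe set and array. RMA appears, without settings, in the submitters' processing notes. Every array had a mean of 1 (values 0.0166 to 99.9), so they were read as linear, and log2 was taken without a pseudocount. No pair of arrays was identical. A build used for the probes is not given in the sources used here. The number of arrays limits the precision.

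Of 43681 probe sets 30342 carried 1 gene symbol, none several and 13339 none. Current symbols came from RefSeq's table of genes (15255 probe sets by accession). For each of 21552 genes the probe set with the highest mean was kept, with no filter. All arrays were fitted in limma 3.58.1 (R 4.3.3) with 1 mean for each of 19 groups from the labels (56 residual and 3.37 prior degrees of freedom), a design chosen for log2 values. Moderated tests were two-sided, with Benjamini-Hochberg adjustment across the 21552 genes in each comparison and a threshold of 0.05, and the fit was checked on simulated data.

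The genes named are the 7 members in every comparison, Gli1, the 3 genes most correlated with each called member, and up to 4 called genes per list with the smallest adjusted p. Members and lists were chosen with earlier results of these data known. Alternatives were the mean of all probe sets, dim genes left out (14368 kept), a second quantile normalization, a trended robust prior, array weights, a replicate block, marker covariates, the 21 muscle-rich arrays left out, only the groups compared, further probe sets and each array left out in turn. An uncalled value that changed sign and stayed uncalled was counted as unchanged. Deviations of same-numbered replicates had r from -0.61 to 0.50, over 0.1 in 14 of 42 pairs. Differently numbered pairs were not computed, so this count cannot decide whether numbers mark shared variation. The fit reported has no block.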

Additional observations from a re-analysis of the deposited data

Results flagged for a closer look

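Each member was checked in each group of 4 or 5 arrays, 98 checks in all. In 6 of them the gap of 1 array to the others was beyond Dixon's 95% critical value. Chance flags about 1 in 20 independent checks, and these checks share arrays. For Cdkn1a, replicate 3 of 40 mpk at 1 h had 2.02 against 1.33 to 1.41 in the others of its group. The same array was low for Cdkn2c, at 1.88 against 2.43 to 2.56. Vehicle replicate 1 at 1 h was low for Cdkn2a, at 1.73 against 3.84 to 5.06, and for Cdkn2d, at 3.63 against 4.19 to 4.42. Cdkn1b had 16.1 in vehicle replicate 4 at 6 h against 14.7 to 14.98, and Cdkn2c had 3.22 in multiple-dose vehicle replicate 2 at 24 h against 1.96 to 2.08.

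Effects that differed between times or schedules by the limma test were also marked. For Cdkn2d the difference in log2 effect was -0.84 (24 h less 12 h) and 0.64 (36 h less 24 h) at 40 mpk, -0.98 and 0.67 at 80 mpk, and -0.83 for multiple less single dosing. For Cdkn2c it was -0.71 (80 mpk, 24 h less 12 h) and -0.67 (multiple less single dosing). For Cdkn1c it was -0.80 (80 mpk, 36 h less 24 h) and 0.76 (multiple less single dosing), and for Cdkn1a 1.23 (80 mpk, 24 h less 12 h).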

How the results depend on the processing

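Of 243 alternative values for the 13 called changes of members, 213 kept direction and call, 30 lost the call and 0 reversed. Of 1190 for the 64 uncalled changes, 21 became called in the same direction and 2 reversed with 4 marker lists as covariates, a fit chosen after seeing the data: Cdkn1a at -0.551 (40 mpk 24 h, against 0.11) and -0.590 (multiple doses 36 h, against 0.18). Those marker lists themselves moved with treatment. Of 5200 alternative list counts, 4863 stayed within 1.5 times.

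The number of members called at 80 mpk 24 h, 2 as reported, was 5 with array weights and 4 with muscle and fibroblast or all 4 covariates. At 80 mpk 12 h it was 0 without muscle-rich arrays, against 2. At 40 mpk 12 h it was 0 with the mean of probe sets or only the groups compared, against 1. At 40 mpk 6 h it was 1 with either covariate fit, against 0. At 80 mpk 36 h it was 1 without muscle-rich arrays, with only the groups compared or with 4 covariates, against 2. For effect differences at 40 mpk, 24 h less 12 h gave 2 without dim genes, 3 with array weights and 2 with the replicate block, against 1, and 36 h less 24 h gave 2 with only the groups compared, against 1. At 80 mpk, 24 h less 12 h gave 1 without muscle-rich arrays, against 3, and 36 h less 24 h gave 1 with 4 covariates, against 2. Multiple less single dosing gave 1 with only the groups compared, against 3. Multiple against single vehicle at 24 h gave 1 without dim genes, and 2 with array weights or only the groups compared, against 0. The replicate block moved no other number of members called by more than 1.5 times, and the cause of these shifts was not tested.

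Leaving out 1 array at a time gave 0 to 1 members at 40 mpk 12 h, 1 to 3 at 80 mpk 12 h, 0 to 2 at 80 mpk 36 h, 1 to 2 for 40 mpk 24 h less 12 h, 1 to 2 for 80 mpk 36 h less 24 h, 1 to 3 for multiple less single dosing and 0 to 1 for vehicle schedules at 24 h. Cdkn2d at 24 h (-0.60 to -0.85 at 40 mpk, -0.78 to -1.04 at 80 mpk) and after multiple doses (-1.0 to -1.24), and Cdkn2c at 80 mpk 24 h (-0.43 to -0.70) and after multiple doses (-0.81 to -1.10), kept their calls in all alternatives run. Without muscle-rich arrays the single-dose groups of 40 mpk at 24 h and 80 mpk at 6 h had fewer than 2 arrays. Comparisons with these groups gave no value in that alternative.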

Other observations

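Cdkn1a varied among vehicle tumours together with the marker lists. Over the 31 vehicle arrays, taken as deviations from their own group mean, Cdkn1a correlated with the macrophage list (Pearson r = 0.81, Spearman rho = 0.74, permutation p = 4.00e-05 and 0.000180, adjusted 0.000373 and 0.00126). With the fibroblast list r was 0.75 and rho 0.80 (permutation p = 1e-05 for both, the smallest that 100000 permutations can give, adjusted 0.000280). With the endothelial list r was 0.72 and rho 0.78 (permutation p = 7.00e-05 and 2.00e-05, adjusted 0.000490 and 0.000280), and with the proliferation list r was -0.79 and rho -0.74 (permutation p = 2.00e-05 and 0.000110, adjusted 0.000280 and 0.00103). Without the 2 arrays farthest from the median of the list, r was 0.71, 0.75, 0.78 and -0.73 in that order of lists.

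Cdkn2d correlated with the proliferation list in the same arrays (r = 0.71, rho = 0.55, permutation p = 0.000430 and 0.00765, adjusted 0.00241 and 0.0238), with r = 0.59 without the 2 farthest arrays. For Cdkn2c with that list r was 0.24 (permutation p = 0.290, adjusted 0.325). For 3 other members the relations that passed by both r and rho had the opposite sign to those of Cdkn1a. Cdkn1b had r = -0.56 with the fibroblast list and 0.51 with the proliferation list (permutation p adjusted 0.00451 and 0.0143; rho -0.62 and 0.52, adjusted 0.00308 and 0.0224; r without the 2 farthest arrays -0.64 and 0.47). Cdkn2b had r = -0.60 and 0.53 with the same lists (permutation p adjusted 0.00313 and 0.00722; rho -0.55 and 0.51, adjusted 0.0137 and 0.0224; r without the 2 farthest arrays -0.57 and 0.59), and -0.48 with the endothelial list (adjusted 0.00451; rho -0.47, adjusted 0.0263; r without the 2 farthest arrays -0.41). Cdkn2c had r = -0.44 with the macrophage list (permutation p adjusted 0.0227; rho -0.48, adjusted 0.0263; r without the 2 farthest arrays -0.40). In all, 16 relations passed by r after adjustment, and 11 of them by rho as well. All 28 relations of 7 members with 4 lists were computed, after the data were seen, with permutation within groups and adjustment over the 28. No batch was given in the labels, and these arrays share scaling and mixed cell content.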
